A study of Saccharomyces cerevisiae with 4 samples.

Results

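The enzymes that build amino acids in budding yeast, together with GCN4 (YEL009C), the gene of the transcription factor that activates many of them, were followed in a strain with mutant histone H3 and in a wild-type strain. The members were 59 genes chosen by name for their place in a synthesis pathway, and each was read on the probe set that the platform annotation ties to that gene alone, the one of highest mean signal where there were several. All 59 had such a probe set among the 5656 genes read this way, and 56 of them were among the 4576 genes that passed the filter on low signal, which left out the dimmest 25% of single-gene probe sets, and were tested with limma. TRP1, MET2 and MET16 fell below that filter. The mutant cultures carried histone H3 K4,36,79R, in which lysines 4, 36 and 79 are replaced by arginine, and the controls were cultures of the wild-type strain, with 2 cultures in each group at 0 h. Total RNA was hybridised to Affymetrix arrays, 1 per culture, and the deposited values are the authors' MAS5 signals on a linear scale. All values of the mutant columns were whole multiples of 0.0839 (replicate 1) and 0.0960 (replicate 2), and those of both wild-type columns of 0.1, to within 0.01 of a step. The mutant columns thus carry a further factor of 0.839 and 0.960 relative to a step of 0.1, which the sources used here do not explain, and signals are printed as deposited with that factor in them. Deposited signals of the strains are therefore not directly comparable, and differences, and statements on overlap unless they name the deposited signals, are on the scale centred per array. Both groups were growing on galactose and were harvested in mid-log phase. In the wider time course a shift to glucose represses wild-type H3 and leaves the mutant protein as the only H3, so the 0 h cultures precede that repression. The sources used here give neither the full genotypes nor the amino acids in the medium, which was selective.

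Gcn4 binds upstream of genes in most amino acid pathways and raises their transcription. Its own supply is set mainly at translation: when amino acids run short, the kinase Gcn2 senses uncharged tRNA and phosphorylates the initiation factor eIF2, and ribosomes then reach the GCN4 reading frame past short upstream frames. GCN4 mRNA therefore does not report Gcn4 protein. Pathway regulators such as Leu3, Lys14, the arginine repressor complex, Bas1 with Pho2, and Met4 add their own control on top of Gcn4.

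None of the 56 tested members passed the test between the strains. The smallest limma adjusted p among them was 0.407, for ARO4, whereas the share of all tested genes past the threshold of 0.05 was 0.0437%. The median difference over the members, mutant minus wild type on the log2(signal + 2) scale after centring each array, was -0.031, beside -0.0087 over all tested genes. With the mutant factors divided out and no centring, the medians of all members and of the lysine, branched-chain and threonine-route genes took the opposite sign, at 0.018, 0.021, 0.038 and 0.014, where all tested genes had a median of 0.038. Differences ran from -0.69 for HIS6 to 0.50 for MET10, so no member reached a 2-fold difference in either direction, against 32 of all tested genes that did. A difference of either sign was measured, with 32 members (57.1%) lower and 24 higher in the mutant, and 51.6% of all tested genes lower. HIS6, ARO4 and LYS2 were at least 1.5-fold lower, 5.36% of the members beside 2.25% of all tested genes, and 0 members were at least 1.5-fold higher, beside 3.37%. The HIS6 value rests on mutant replicate 1, and without that array its difference was -0.0030. At an unadjusted p under 0.05 there were 3 lower members (ARO4, LYS2 and HIS7) and 3 higher ones (ARG3, TRP3 and BAT2), which is 5.36% and 5.36% of the tested members, beside 3.61% and 4.92% of all tested genes. Both mutant arrays lay below both wild-type arrays for 10 members (17.9%) and above both for 9 (16.1%) on the centred scale, where the shares over all tested genes were 18.5% and 21.0%. The shares without overlap and the share of higher members at that p lie near the background or under it. In a bulk culture, fewer cells with a transcript and less of it per cell cannot be told apart.

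**Figure D1:**
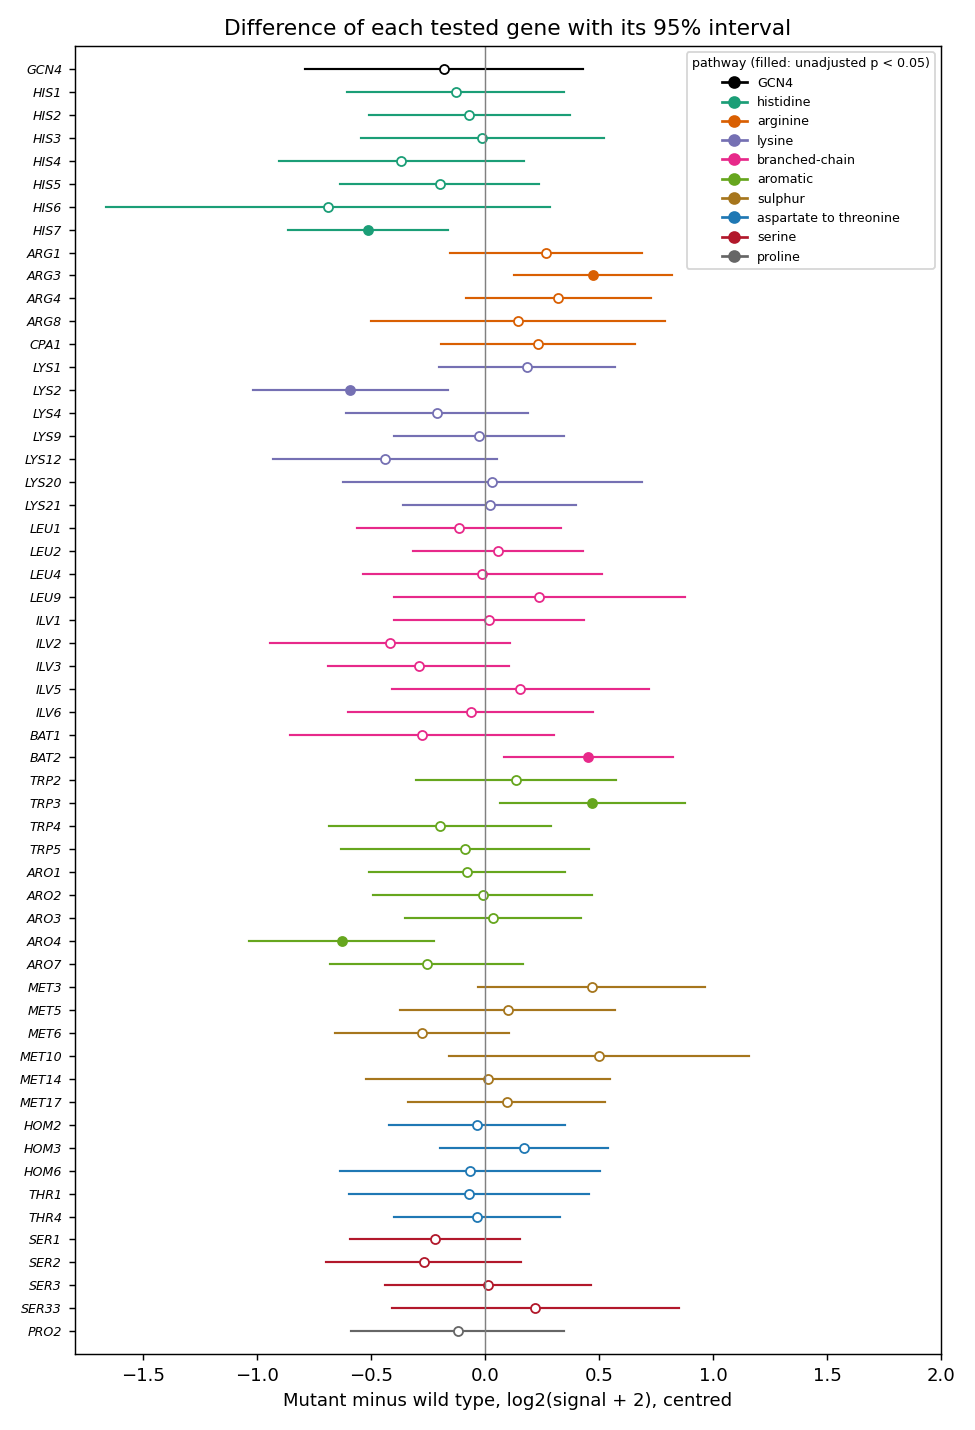
Difference of each of the 56 tested genes, mutant minus wild type, on the centred log2(signal + 2) scale (points) with its 95% interval from limma (lines), coloured by pathway; filled points have an unadjusted p under 0.05. The 7 histidine genes lie left of 0 and the 5 arginine genes right of it, and the interval excludes 0 for ARO4, LYS2, HIS7, ARG3, TRP3 and BAT2 alone.

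GCN4 itself was read at a deposited signal of 1215 and 1374 in the mutant cultures, against 1349 and 1839.7 in the wild-type cultures. The groups overlapped, and after centring both mutant cultures lay between the wild-type ones. Centred log2 levels of GCN4 were 10.39 ± 0.031 in the mutant and 10.57 ± 0.37 in the wild type (SD, n = 2 each), a difference of -0.18 (SE 0.26, 95% interval -0.79 to 0.43, adjusted p = 0.896). The wild-type cultures differed from each other by 0.52 (replicate 2 minus replicate 1) for this gene and the mutant cultures by 0.043. Leaving out wild-type replicate 2 gave GCN4 a difference of 0.080, of the opposite sign, and leaving out wild-type replicate 1 gave -0.44.

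Histidine synthesis genes were lower in the mutant in 7 of 7 cases (median -0.20), beside 51.6% of all tested genes. Of the 7, 0 passed limma's test and 1 was lower at an unadjusted p under 0.05, beside 3.61% of all tested genes. Both mutant arrays lay below both wild-type arrays for 2 of them on the centred scale, beside 18.5% of all tested genes. The count of lower genes was also 7 of 7 with quantile normalisation and with cyclic loess. It was 6 of 7 in a pair of other settings, in each of which HIS3 turned. HIS3 stood at 0.17 when probe sets of 1 gene were averaged and at 0.037 with the mutant factors divided out and no centring. HIS7 (YBR248C), the imidazole glycerol phosphate synthase gene, had signals of 177 and 177 in the mutant, against 284 and 264 in the wild type. Its groups did not overlap, and HIS7 differed by -0.52 (SE 0.15, adjusted p = 0.442). HIS6, whose product acts just before that of HIS7, had the lowest point estimate of the pathway, -0.69 (SE 0.42), from signals of 15.5 and 47.8 in the mutant and 58.4 and 41.5 in the wild type. That value rests on mutant replicate 1, since the other mutant culture lay between both wild-type cultures, and the difference was -0.0030 without mutant replicate 1. HIS4, which encodes an enzyme that acts at several steps including the last, was read at 363 and 422 in the mutant and 445 and 666 in the wild type, a difference of -0.37 (SE 0.23). The HIS4 groups did not overlap, yet the wild-type cultures were 0.65 apart. HIS3, the imidazoleglycerol-phosphate dehydratase gene and a common strain marker, had the highest difference of the pathway at -0.012 (SE 0.23), with signals of 184 and 213 in the mutant and 173 and 266 in the wild type. Both mutant values lay inside the wild-type range. A dimmer HIS3 probe set read 77.9 and 77.9 in the mutant and 75.2 and 57.3 in the wild type, a difference of 0.35, opposite in sign to the first. HIS1 (ATP phosphoribosyltransferase, the first step), HIS2 (histidinol phosphatase) and HIS5 (histidinol-phosphate aminotransferase) stood at -0.13, -0.069 and -0.20. The count of lower histidine genes was 5 of 7 without mutant replicate 1 and 4 of 7 without wild-type replicate 2. The pathway median was -0.020 or -0.38 with mutant replicate 1 or 2 left out and -0.37 or -0.042 with wild-type replicate 1 or 2 left out.

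Arginine synthesis genes stood higher in the mutant in 5 of 5 cases (median 0.27), where 51.6% of all tested genes were lower. They stood so in 5 of 5 under each other scaling tried. Of the 5, 0 passed limma's test and 1 was higher at an unadjusted p under 0.05, beside 4.92% of all tested genes. Both mutant arrays lay above both wild-type arrays for 4 of them on the centred scale, where the share over all tested genes was 21.0%. ARG3 (YJL088W), the ornithine carbamoyltransferase gene, was read at 183 and 197 in the mutant and 150.5 and 142 in the wild type. Replicates of ARG3 agreed closely in both strains, at 7.63 ± 0.020 in the mutant and 7.16 ± 0.0063 in the wild type (SD, n = 2 each), and the difference was 0.47 (SE 0.15, adjusted p = 0.457). ARG1 (argininosuccinate synthetase) had 686 and 789 in the mutant, against 637 and 682 in the wild type, a difference of 0.27 (SE 0.18) with groups apart. ARG4 (argininosuccinate lyase) and CPA1 (the small subunit of the arginine-specific carbamoyl phosphate synthetase) differed by 0.32 (SE 0.18) and 0.23 (SE 0.18). Their groups were apart after centring, whereas the deposited signals, with the mutant factors in them, overlapped. ARG8, the acetylornithine aminotransferase gene of the mitochondrial steps, had the smallest difference at 0.14 (SE 0.28). Its signals were 67.2 and 61.1 in the mutant and 84.1 and 46.1 in the wild type, so the wild-type cultures enclosed the mutant ones, and without wild-type replicate 1 or 2 it stood at 0.53 or -0.24. The pathway median was 0.30 or 0.26 with mutant replicate 1 or 2 left out and 0.22 or 0.36 with wild-type replicate 1 or 2 left out. Among the comparison genes outside the membership, the arginine genes ARG2 (0.18) and ARG7 (0.15) of the ornithine steps were higher as well, without passing the test, and the mitochondrial ornithine transporter gene ORT1 was at -0.28.

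**Figure D2:**
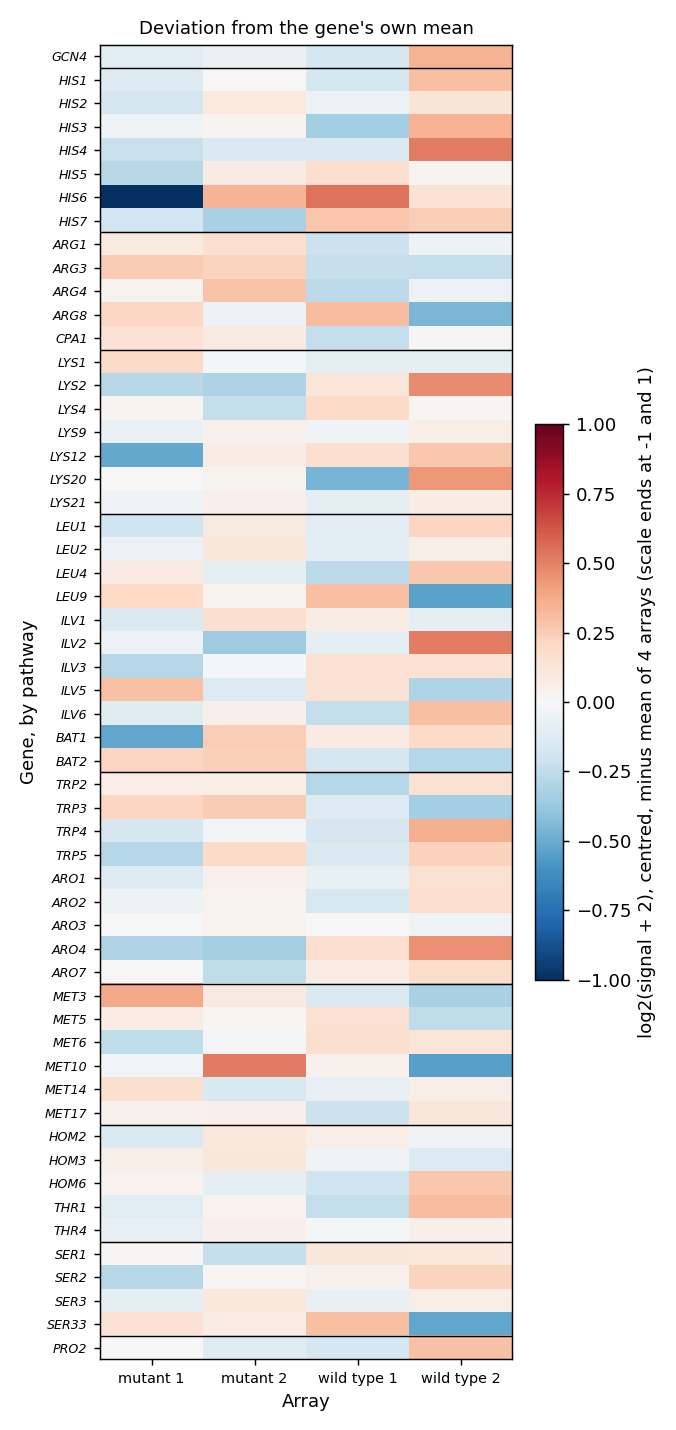
Deviation of each tested gene (rows, by pathway) from its own mean over the 4 arrays (columns), on the centred log2(signal + 2) scale; blue is below the gene's mean and red above it, and the colour scale ends at -1 and 1. Both mutant columns are blue for ARO4, LYS2 and HIS7 and red for ARG3, TRP3 and BAT2, whereas for GCN4, HIS3 and LYS20 the largest contrast is between the wild-type columns.

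Lysine synthesis genes were mixed, with 4 lower and 3 higher in the mutant, a median of -0.027 and 0 past limma's test. Of the 7, 1 was lower at an unadjusted p under 0.05, beside 3.61% of all tested genes. LYS2 (YBR115C), the alpha-aminoadipate reductase gene and a common strain marker, was read at 83.0 and 89.4 in the mutant and 128 and 155 in the wild type. Its groups did not overlap, and the difference was -0.59 (SE 0.18, adjusted p = 0.457). LYS12 (homoisocitrate dehydrogenase) also lay lower in both mutant cultures, at -0.44 (SE 0.21). LYS1, which encodes the last enzyme of the pathway, saccharopine dehydrogenase, was highest at 0.18 (SE 0.17), with signals of 125 and 119 in the mutant and 119 and 113 in the wild type. LYS20 and LYS21 encode homocitrate synthases, which start the pathway, and differed by 0.032 and 0.019. LYS20 read 459 and 519 in the mutant and 384 and 687 in the wild type, so its wild-type cultures were 0.91 apart, the widest gap between wild-type replicates among the tested members. A probe set shared by LYS20 and LYS21 read 492 and 587 in the mutant and 490.4 and 584 in the wild type and was not assigned to either. LYS4 (homoaconitase) and LYS9 (the glutamate-forming saccharopine dehydrogenase) stood at -0.21 and -0.027. The pathway median took either sign, at 0.029 or -0.080 with mutant replicate 1 or 2 left out and -0.13 or 0.019 with wild-type replicate 1 or 2 left out.

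Branched-chain amino acid genes did not share a direction either, and 6 of 11 were lower. Their median was -0.012 (0.036 with quantile normalisation and 0.027 with cyclic loess). Of the 11, 0 passed limma's test and 1 was higher at an unadjusted p under 0.05, beside 4.92% of all tested genes. BAT2 (YJR148W), the cytosolic branched-chain aminotransferase gene, was read at 461 and 515 in the mutant and 409.5 and 358 in the wild type. BAT2 was thus higher in both mutant cultures, by 0.45 (SE 0.16, adjusted p = 0.509). BAT1, the gene of the mitochondrial form, stood at -0.28 (SE 0.25), with 223 and 419 in the mutant and 395 and 406 in the wild type. Only mutant replicate 1 was low for BAT1, and without it the difference was 0.11. ILV2, the acetolactate synthase gene of the first step shared by isoleucine and valine synthesis, was lowest at -0.42 (SE 0.23), with 246 and 219.7 in the mutant and 279 and 403 in the wild type. The mutant values lay under both wild-type values in the deposited signals, with the mutant factors in them, but overlapped them after centring. ILV6, which encodes the regulatory subunit of that enzyme, stood at -0.064, and ILV3 (dihydroxyacid dehydratase) at -0.29, below both wild-type cultures. ILV1 (threonine deaminase) and ILV5 (acetohydroxyacid reductoisomerase) were at 0.017 and 0.15. Of the leucine branch, the isopropylmalate synthase genes LEU4 and LEU9 were at -0.012 and 0.24 and the isopropylmalate isomerase gene LEU1 at -0.11.

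LEU2, the isopropylmalate dehydrogenase gene and a common strain marker, was read on 3 probe sets that disagreed. The brightest, used here, read 239 and 296 in the mutant and 266 and 286 in the wild type, a difference of 0.056 (SE 0.16). Another read 41.4 and 58.2 in the mutant and 96.1 and 88.0 in the wild type, a difference of -0.77, with groups apart. The third read 48.9 and 95.2 in the mutant and 119.9 and 95.1 in the wild type, a difference of -0.52. LEU2 thus has no settled direction. The pathway median was 0.031 or -0.14 with mutant replicate 1 or 2 left out and -0.27 or -0.065 with wild-type replicate 1 or 2 left out.

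**Figure D3:**
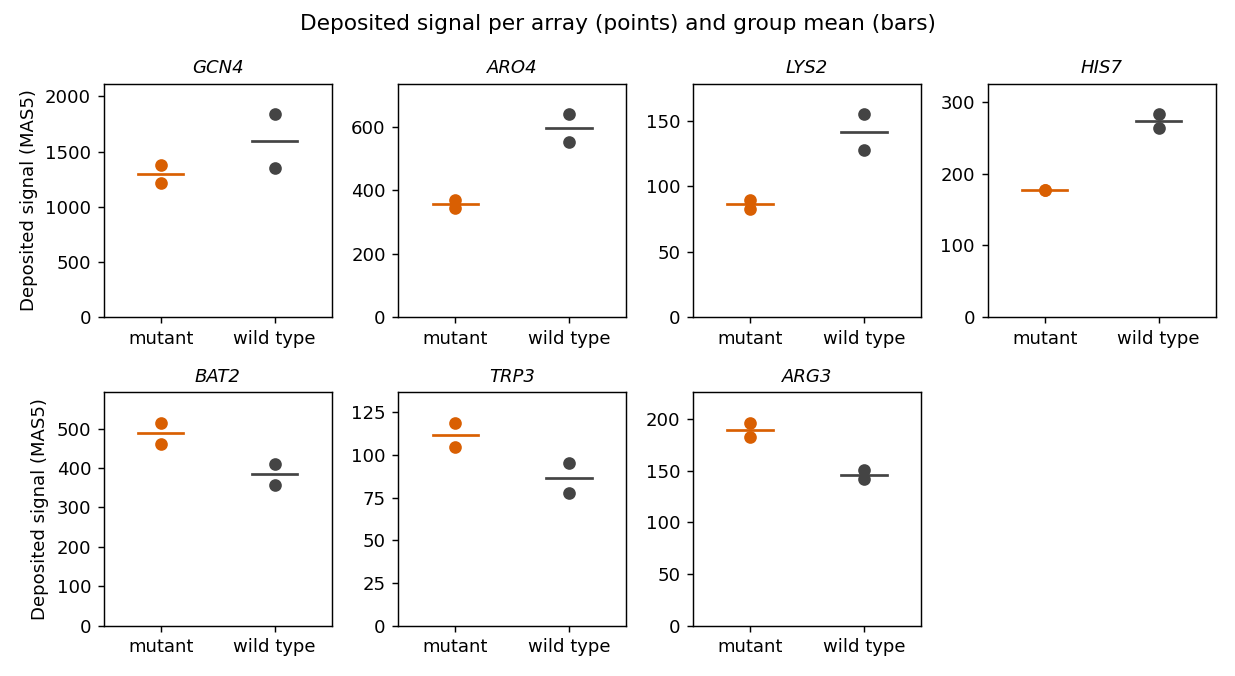
Deposited MAS5 signal (vertical axis, linear, from 0) of GCN4 and of the 6 genes with an unadjusted p under 0.05, with the mutant left of the wild type; points are arrays and bars are group means. The groups of GCN4 overlap, ARO4, LYS2 and HIS7 are lower in both mutant arrays, and BAT2, TRP3 and ARG3 are higher in both; mutant points include the further factor of their column.

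In aromatic amino acid synthesis 6 of 9 tested genes were lower, with a median of -0.080 and 0 past limma's test. At an unadjusted p under 0.05 there were 1 lower and 1 higher, beside 3.61% and 4.92% of all tested genes. ARO4 (YBR249C) encodes the tyrosine-inhibited DAHP synthase that opens the shikimate pathway. Signals of ARO4 were 344 and 369.6 in the mutant, against 552 and 642 in the wild type. Centred levels of ARO4 were 8.54 ± 0.022 in the mutant and 9.17 ± 0.20 in the wild type (SD, n = 2 each), a difference of -0.63 (1.55-fold lower, SE 0.17, 95% interval -1.04 to -0.22, adjusted p = 0.407). The phenylalanine-inhibited form of the same enzyme is encoded by ARO3, which read 515 and 579.7 in the mutant and 598 and 552 in the wild type, a difference of 0.034 (SE 0.17) with overlapping groups. No test of the difference between ARO4 and ARO3 was run. ARO1 (the multifunctional shikimate enzyme) and ARO2 (chorismate synthase) stood at -0.080 and -0.011. ARO7 (chorismate mutase, toward tyrosine and phenylalanine) was lower in both mutant cultures, at -0.26 (SE 0.18). On the tryptophan branch TRP3, which encodes a subunit of anthranilate synthase that also carries indole-glycerol-phosphate synthase, was highest. TRP3 read 105 and 119 in the mutant and 95.5 and 77.8 in the wild type, with a difference of 0.47 (SE 0.17, adjusted p = 0.547). Its partner subunit gene TRP2 stood at 0.13, TRP4 at -0.20 and the tryptophan synthase gene TRP5 at -0.088. TRP1 (phosphoribosylanthranilate isomerase, a common strain marker) read 1.17 and 3.17 in the mutant and 0.700 and 0.500 in the wild type. All 4 TRP1 signals lay far under 24.95, the lowest mean signal of a tested gene, so no difference is read from them. The pathway median was 0.033 or -0.13 with mutant replicate 1 or 2 left out and -0.19 or 0.071 with wild-type replicate 1 or 2 left out.

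Sulphur amino acid genes were higher in 5 of 6 tested cases (median 0.10), with 0 past limma's test and 0 at an unadjusted p under 0.05. MET3 (ATP sulfurylase, which opens sulphate assimilation) read 57.0 and 50.8 in the mutant and 45.3 and 37.8 in the wild type. The MET3 groups did not overlap, and the difference was 0.47 (SE 0.21). MET10, a sulfite reductase subunit gene, had the highest difference at 0.50 (SE 0.28), from 41.0 and 67.0 in the mutant and 50 and 31.1 in the wild type, where the groups overlapped. The other subunit gene, MET5, stood at 0.10, and the adenylylsulfate kinase gene MET14 at 0.011. MET17, which encodes the enzyme that joins sulfide to O-acetylhomoserine and is a common strain marker, read 542 and 596 in the mutant and 524 and 626 in the wild type, a difference of 0.094 (SE 0.19) with overlapping groups. MET6, the methionine synthase gene, was the lower one at -0.28 (SE 0.16), with 289.9 and 375 in the mutant and 448 and 414 in the wild type. MET2 (homoserine O-acetyltransferase), just under the filter, read 31.9 and 26.8 in the mutant and 22.0 and 18.2 in the wild type. In a fit without the filter MET2 differed by 0.60 (SE 0.24, adjusted p = 0.548). MET16 (PAPS reductase) read 19.9 and 19.4 in the mutant and 18.8 and 18.7 in the wild type, under the filter in every culture. The pathway median was 0.083 or 0.15 with mutant replicate 1 or 2 left out and 0.12 or 0.15 with wild-type replicate 1 or 2 left out, and without centring it was -0.0091.

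The route from aspartate to threonine differed over the narrowest range among the pathways with several genes. Its 5 genes differed by -0.071 to 0.17, with a median of -0.035 (0.0016 with quantile normalisation), and neither they nor the serine and proline genes gave a call in limma or an unadjusted p under 0.05. HOM3 (aspartate kinase) was highest at 0.17 (SE 0.16), with 123 and 139.9 in the mutant and 133 and 118 in the wild type, deposited signals that overlapped, whereas the centred levels did not. THR1 (homoserine kinase) was lowest at -0.071 (SE 0.23), with 578 and 697 in the mutant and 609 and 846 in the wild type, where the groups overlapped. HOM2, HOM6 and the threonine synthase gene THR4 stood at -0.035, -0.067 and -0.035. In serine synthesis the later steps were lower in both mutant cultures, SER1 (phosphoserine aminotransferase) at -0.22 (SE 0.16) and SER2 (phosphoserine phosphatase) at -0.27 (SE 0.18). SER2 read 82.4 and 112 in the mutant, against 120.5 and 130.3 in the wild type. The first step is encoded by SER3 and SER33, at 0.013 and 0.22. SER33, highest of the serine genes, read 87.0 and 91.1 in the mutant and 112 and 59.8 in the wild type, so its wild-type cultures enclosed the mutant ones. PRO2 of proline synthesis read 448 and 454 in the mutant and 460.5 and 606 in the wild type, a difference of -0.12 (SE 0.20) with groups that overlapped after centring. The median was 0.032 or -0.10 with mutant replicate 1 or 2 left out and -0.065 or 0.12 with wild-type replicate 1 or 2 left out for the threonine route. For serine it was -0.0031 or -0.093 with mutant replicate 1 or 2 left out and -0.13 or -0.18 with wild-type replicate 1 or 2 left out.

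Over the tested members the median absolute difference between the strains' means was 0.18, and single replicates differed by a median absolute 0.17 in the mutant and 0.22 in the wild type. Over all tested genes these values were 0.17, 0.14 and 0.28. A difference between means of 2 arrays varies less than one between single arrays, so the first value is not on the footing of the others. In the wild-type cultures, replicate 2 was above replicate 1 by 0.52 for GCN4, 0.65 for HIS4, 0.68 for HIS3, 0.60 for ILV2 and 0.53 for TRP4, and below it for LEU9 (-0.84), SER33 (-0.82) and ARG8 (-0.77). These genes were picked after their values were seen. Per array, the median deviation of the histidine genes from their own means was -0.19 and 0.031 in the mutant and -0.059 and 0.24 in the wild type, so the groups overlapped. The same measure for the arginine genes was 0.14 and 0.17 in the mutant and -0.23 and -0.060 in the wild type, without overlap. The sulphur median was also free of overlap, at 0.062 and 0.035 in the mutant and -0.019 and -0.094 in the wild type. Of the 6 sulphur genes, 1 was higher without overlap, 1 was lower and 4 overlapped. The serine median separated the other way, at -0.042 and 0.046 in the mutant and 0.078 and 0.083 in the wild type. Of the 4 serine genes, 2 were lower without overlap and 2 overlapped. Over all tested genes 21.0% were higher without overlap and 18.5% lower. How often medians of other gene sets separate in this way was not measured. Over all members the median difference was 0.030 or -0.081 with mutant replicate 1 or 2 left out and -0.15 or 0.058 with wild-type replicate 1 or 2 left out.

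**Figure D4:**
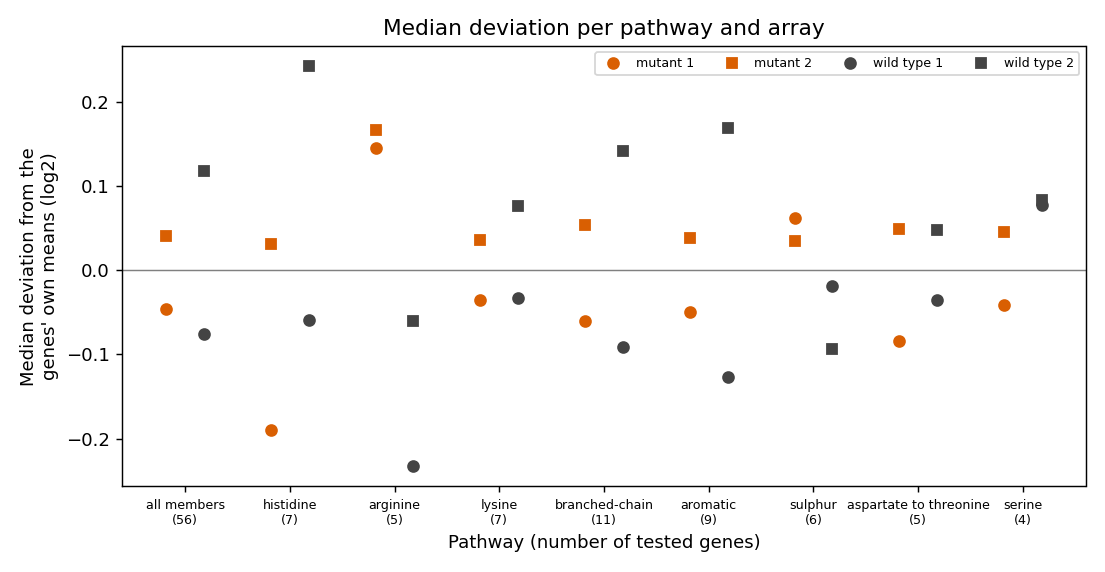
Median deviation of each pathway's tested genes from their own means (vertical axis, centred log2 scale) for each array, with mutant arrays in orange left of wild-type arrays in grey; circles are replicate 1 and squares replicate 2. The medians of the arginine and sulphur genes lie above 0 in both mutant arrays and below it in both wild-type arrays. The serine median lies lower in both mutant arrays than in both wild-type arrays, although 2 of its 4 genes were higher in the mutant. For the branched-chain and aromatic medians the wild-type arrays enclose both mutant arrays.

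Of 34 other amino acid synthesis genes 29 were tested and 0 passed, with 17 higher, 12 lower, a median of 0.024 (-0.082 without centring) and 0 at an unadjusted p under 0.05. They ran from the glutamate kinase gene PRO1 (-0.39, SE 0.20) to the asparagine synthetase gene ASN1 (0.45, SE 0.24). Of 22 genes for regulators of the pathways 15 were tested, 0 passed, 6 were higher and 9 lower (median -0.031), again with 0 at that p. The lowest was BAS1, which encodes an activator of histidine and purine synthesis genes, at -0.51 (SE 0.23, adjusted p = 0.612), and the highest MKS1, a negative regulator of retrograde signalling to glutamate synthesis, at 0.45 (SE 0.25). BAS1 read 46.7 and 36.5 in the mutant and 61.8 and 67.0 in the wild type.

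Genes for the translational control and turnover of Gcn4 were tested in 16 of 16 cases, with 9 higher, 7 lower, 0 past the test, a median of 0.0069 (-0.10 without centring and -2.5e-05 with cyclic loess) and 2 lower at an unadjusted p under 0.05, beside 3.61% of all tested genes. GCD7, which encodes the beta subunit of the guanine nucleotide exchange factor eIF2B, was lowest: it read 92.4 and 109 in the mutant and 172 and 228 in the wild type, a difference of -0.86 (SE 0.20, adjusted p = 0.249). The eIF2 kinase gene GCN2 was highest at 0.21 (SE 0.24). Of 14 genes of amino acid breakdown 12 were tested and 0 passed, with 5 higher, 7 lower, a median of -0.11 and 3 higher at that p, beside 4.92% of all tested genes. ARO10, the phenylpyruvate decarboxylase gene of aromatic amino acid breakdown, was highest at 0.92 (SE 0.20, adjusted p = 0.228), with 92.7 and 107 in the mutant and 64.9 and 47.8 in the wild type. The glycine cleavage gene GCV3 was lowest at -0.34 (SE 0.29).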

How the data were processed

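Transcripts were measured on Affymetrix arrays from 4 yeast cultures, 2 per strain, grouped and numbered by their titles. The deposited values are intensities, 1 linear-scale signal per probe set, which the authors computed using MAS5, per the submitters' processing notes. The sources used here give no version, scaling target or later step, nor the origin of the factor carried by each mutant column, which centring removes apart from its effect through the pseudocount. Median deposited signals were 38.6 and 42.9 on the mutant arrays and 47.6 and 39.3 on the wild-type arrays, and the number of arrays limits the precision. Of 9335 probe sets 6504 were tied to 1 gene, whose names came through the RefSeq table of assembly R64. A pseudocount of 2 (the 10th percentile of the signals, rounded) was added before log2, which understates the change of dim genes. The dimmest 25% of single-gene probe sets were left out, 1 probe set per gene was kept, and each array was centred on its median, which removes a shift of -0.11 between the strains. limma 3.58.1 in R 4.3.3 (lmFit, eBayes with trend, 2 residual and 5.63 prior degrees of freedom) gave two-sided p-values, adjusted by Benjamini-Hochberg over all 4576 tested genes. Since the series' design names replicate cultures, each array was taken as a culture of its own.

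The members, the 4 comparison lists and the rules were chosen with earlier results of these data known. Values in every culture are given for GCN4, the highest and lowest member of each pathway, members with an unadjusted p under 0.05, strain markers and members under the filter; of each comparison list the highest and lowest gene are named. Some genes of the comparison lists are not reported here, and promoter and protein sequences were not analysed here. Python 3.11.15 with pandas 2.3.3 and matplotlib 3.10.9 read the table and drew the figures.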

Additional observations from a re-analysis of the deposited data

How the results depend on the processing

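No member passed limma's test under any of the 11 other settings or the 4 fits without 1 array, with smallest adjusted p-values from 0.0759 to 0.984. Leaving aside the 2 settings that shift all genes nearly alike, 25 tested members kept their sign in all of these and 31 did not, 22 of them only when an array was left out. Without centring every member's difference shifts by -0.11, so sign changes there follow from that shift. The median over all tested genes was also -0.11 in that setting. Medians were -0.21 for catabolism, -0.082 for other amino acid synthesis, -0.14 for regulators and -0.10 for translational control. Among the members they were 0.16 for arginine, -0.19 for aromatic, -0.14 for aspartate to threonine and -0.12 for branched-chain genes. The rest were -0.31 for histidine, -0.13 for lysine, -0.21 for serine, -0.0091 for sulphur and -0.14 for all members. Members with an unadjusted p under 0.05 numbered 0 higher and 5 lower, and 41 members were lower. These counts carry the same shift, and the shares of all tested genes were not measured without centring. With the mutant factors divided out and no centring, a setting chosen after seeing the data, differences shift by 0.036 to 0.050 and medians were -0.056 for catabolism, 0.074 for other amino acid synthesis, 0.012 for regulators, 0.055 for translational control, 0.32 for arginine, -0.030 for aromatic, 0.014 for aspartate to threonine, 0.038 for branched-chain, -0.15 for histidine, 0.021 for lysine, -0.056 for serine, 0.15 for sulphur and 0.018 for all members. The median of the regulators was -0.060 with quantile normalisation, 0.0093 without the filter and 0.023 with the lowest 50% left out; that of serine was -0.22 in that last setting. Members higher at an unadjusted p under 0.05 numbered 5 without the filter. TRP1 and MET2, which the filter leaves out, were among them, and no difference is read from the TRP1 signals. The share of all genes at that p was not measured without the filter. Over the fits without 1 array, values ranged from -0.12 to 0.086 for catabolism, -0.039 to 0.076 for other amino acid synthesis, -0.060 to -0.031 for regulators, -0.049 to 0.035 for translational control, 0.22 to 0.36 for arginine, -0.10 to 0.12 for aspartate to threonine, -0.27 to 0.031 for branched-chain, 4 to 7 for the count of lower histidine genes, -0.13 to 0.029 for lysine, -0.18 to -0.0031 for serine, 0.083 to 0.15 for sulphur, -0.15 to 0.058 for all members, 11 to 24 for the count of members higher without overlap, 13 to 30 for the count lower without overlap, 0 to 8 for the count higher at an unadjusted p under 0.05 and 3 to 13 for the count lower at that p. Without centring the opposite sign was taken by ARO3 at -0.072, ILV1 at -0.089, LEU2 at -0.050, LYS20 at -0.074, LYS21 at -0.087, MET14 at -0.095, MET17 at -0.012, MET5 at -0.0065 and SER3 at -0.093. With quantile normalisation the opposite sign was taken by ARO2 at 0.055, HOM6 at 0.034, ILV6 at 0.036, LEU4 at 0.040, MET14 at -0.031 and THR1 at 0.0016. With cyclic loess the opposite sign was taken by ARO2 at 0.038, LEU4 at 0.027, MET14 at -0.020 and SER3 at -0.0089. With the mean of all probe sets the opposite sign was taken by HIS3 at 0.17 and LEU2 at -0.41. Without the filter the opposite sign was taken by MET14 at -0.0032 and SER3 at -0.0015. With the mutant factors divided out and no centring the opposite sign was taken by ARO2 at 0.039, HIS3 at 0.037, HOM2 at 0.014, LEU4 at 0.038, LYS9 at 0.021 and THR4 at 0.014. Leaving out 1 array at a time turned the sign of 31 members, whose differences ranged from -0.44 to 0.080 for GCN4, -0.37 to 0.11 for HIS1, -0.20 to 0.063 for HIS2, -0.35 to 0.33 for HIS3, -0.24 to 0.53 for ARG8, -0.083 to 0.029 for LYS9, -0.42 to 0.48 for LYS20, -0.066 to 0.10 for LYS21, -0.27 to 0.045 for LEU1, -0.032 to 0.14 for LEU2, -0.28 to 0.25 for LEU4, -0.18 to 0.66 for LEU9, -0.14 to 0.17 for ILV1, -0.069 to 0.38 for ILV5, -0.33 to 0.20 for ILV6, -0.66 to 0.11 for BAT1, -0.086 to 0.36 for TRP2, -0.46 to 0.071 for TRP4, -0.33 to 0.15 for TRP5, -0.19 to 0.034 for ARO1, -0.17 to 0.15 for ARO2, -0.10 to 0.30 for MET5, -0.15 to 0.17 for MET14, -0.070 to 0.26 for MET17, -0.16 to 0.091 for HOM2, -0.30 to 0.17 for HOM6, -0.34 to 0.20 for THR1, -0.10 to 0.032 for THR4, -0.086 to 0.11 for SER3, -0.19 to 0.63 for SER33 and -0.35 to 0.11 for PRO2. Fits without an array have 1 residual degree of freedom and take the lone array to vary like the other group. They also make groups without overlap commoner by their construction. The shares of all tested genes, without overlap or at an unadjusted p, were not measured in these fits. The counts of members given for these fits are therefore not read as particular to the members. The cause of the other shifts was not tested. With the replicate number as a block the smallest limma adjusted p among the members was 0.198. At the adjusted threshold 32 of all tested genes passed with the block, against 2 without it. At an unadjusted p under 0.05 the block gave 3 higher and 4 lower members. The share of all tested genes at that p was not measured with the block. Same-numbered arrays deviated with a correlation of 0.044 across genes, and with 2 pairs the arrays share only a number. Dim genes near the filter are limited by signal over background.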

Other observations

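HIS7 and ARO4, the members with the smallest p-values, are neighbours with no protein-coding gene between them in the R64 gene order. They differed by -0.52 and -0.63. This pair was singled out after the values were seen. The other adjacent pair of tested members, TRP2 and MET6, differed by 0.13 and -0.28. MET5 and HOM6, with 1 gene between them, differed by 0.10 and -0.067.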
